A study of Rattus norvegicus with 12 samples.

Results

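The 6 genes described here encode enzymes that handle reactive oxygen or supply the means to do so, and they were chosen by name, as Ensembl identifiers with an expected chromosome. All 6 were found on that chromosome among the 32883 genes counted in whole retinas of RCS rats. RNA was sequenced from 12 libraries, 3 for each combination of age, p21 (postnatal day 21) or p60 (postnatal day 60), and line. The labels give the immunocompetent line as WT, male, with genotype RCS-p+, and the other as athymic, female, with genotype RCS-p+/Foxn1mu, so line and labelled sex coincide. Without *Foxn1* no thymus forms, and T cells, which mature there, are largely missing. RCS rats of every group carry the *Mertk* mutation, which impairs the clearance of rod outer segments, so p21 against p60 compares early with advanced degeneration and holds no unaffected rat of either age. No group was treated. Library totals were between 13852516 and 16725355 counts, and each library goes by the number its label gives it, 1 to 6 at p21 and 19 to 24 at p60.

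Some libraries stood apart from the rest before any enzyme was considered. The 48 annotated genes of the Y chromosome summed to between 229 and 323 CPM (counts scaled to the same total in each library) in the 6 libraries labelled male. Among the 6 labelled female, libraries 4, 5 and 22 reached 328, 316 and 269 CPM and libraries 6, 23 and 24 had 8.79, 23.2 and 16.1 CPM, so the label of sex did not match in 3 libraries. Library 3, labelled male, had the lowest value of the males, 229 CPM. Separately, 31 genes were at least 8-fold above the median of the other libraries of their age in libraries 4, 19 and 24, which is how they were picked. Their summed normalized CPM was 16000 for library 4, 5970 for library 19 and 2290 for library 24, whereas library 6 had 1860, library 3 had 875 and the others had 45.2 to 264. The files do not name these genes. Results were therefore also computed without libraries 4, 19 and 24, and without libraries 3, 4, 5 and 22.

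Superoxide, which leaks from respiring mitochondria and is made by phagocyte oxidases, is converted to hydrogen peroxide by superoxide dismutases. *Sod1* encodes the copper-zinc dismutase of the cytosol and *Sod2* the manganese dismutase of the mitochondrial matrix, and *Cat* encodes catalase, a peroxisomal enzyme that breaks hydrogen peroxide down to water and oxygen. *Gclc* encodes the catalytic subunit of glutamate-cysteine ligase, which carries out the rate-limiting step of glutathione synthesis. *Hmox1* encodes heme oxygenase 1, the inducible enzyme that degrades heme to biliverdin, iron and carbon monoxide, and *Nqo1* encodes a quinone reductase. *Hmox1*, *Nqo1* and *Gclc* are widely used as readouts of the transcription factor NRF2, which binds antioxidant response elements (AREs). Photoreceptors respire at a high rate and hold many polyunsaturated lipids, and oxidative stress has long been studied in their degeneration.

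The promoters of *Sod1* and *Sod2*, which both rose from p21 to p60, and of *Cat*, which did not pass the test, are shown so that the stretch before each gene can be seen. They are RefSeq sequences in build GRCr8, matched by symbol for 5 of the 6 genes, and each runs 5′ to 3′ up to the first base of the gene model. The *Sod1* stretch is chr11:42942573-42942741 on the plus strand, 169 bases, and the *Sod2* and *Cat* stretches are chr1:50050169-50050418 and chr3:110329527-110329776 on the minus strand, 250 bases each. Capitals mark the letters TGACNNNGC (the ARE core), GGGCGG (the GC box) or CCAAT (the CCAAT box), each searched on both strands, and no matches overlap here.
Sod1: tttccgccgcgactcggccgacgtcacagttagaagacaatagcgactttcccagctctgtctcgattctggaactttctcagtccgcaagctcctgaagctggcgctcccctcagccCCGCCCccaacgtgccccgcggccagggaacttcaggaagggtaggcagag
Sod2: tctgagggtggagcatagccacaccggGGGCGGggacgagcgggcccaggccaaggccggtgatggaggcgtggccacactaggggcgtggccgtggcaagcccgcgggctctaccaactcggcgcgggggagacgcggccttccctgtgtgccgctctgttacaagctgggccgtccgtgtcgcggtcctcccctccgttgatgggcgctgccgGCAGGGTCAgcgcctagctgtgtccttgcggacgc
Cat: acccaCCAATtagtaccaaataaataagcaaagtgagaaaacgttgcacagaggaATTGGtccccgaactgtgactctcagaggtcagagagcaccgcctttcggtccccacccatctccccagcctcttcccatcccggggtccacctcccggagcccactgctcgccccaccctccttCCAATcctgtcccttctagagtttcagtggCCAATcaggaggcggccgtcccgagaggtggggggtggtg
In the 250 bases before the annotated start, *Sod2* held 1 match to the ARE core, read on the opposite strand and beginning at position -35 from the start, and *Sod1*, *Cat*, *Nqo1* and *Gclc* held 0. Of 33469 promoters of this length, 10.1% held an ARE core. A GC box was found once each in *Sod1*, *Sod2*, *Nqo1* and *Gclc* and in 30.5% of all promoters. For *Gclc*, 225 of the 250 bases, its GC box among them, lie inside the gene model, so little of its window is upstream sequence. *Cat* held 4 CCAAT boxes, *Sod1* and *Nqo1* held 1 each (that of *Sod1* lies past the stretch printed, where its gene model has already begun), and 34% of all promoters held at least 1. *Hmox1* was the gene without a matched promoter and was not searched. Sequence outside these 250 bases was not searched either, so 0 matches here do not show that a gene lacks an ARE. A match is a string of letters in the sequence, and no binding was measured.

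To determine how the transcripts changed with degeneration, p60 was compared with p21 over all 12 retinas with line as a covariate. *Sod1*, *Sod2* and *Gclc* rose by 1.34-, 1.25- and 1.2-fold, *Cat*, *Nqo1* and *Hmox1* did not pass the test, and none of the 6 fell. All 6 passed the filter on low counts. The 3 of 6 called higher stand beside 31.7% of the 16069 genes tested, which were called higher at p60 at an adjusted p under 0.05 (quasi-likelihood test in edgeR, p-values adjusted by Benjamini and Hochberg). The median log2 fold change was 0.25 for the 6 genes and 0.01 for all genes tested. The values below are normalized CPM, CPM of a library size scaled by TMM factors, which compares libraries but not genes. In whole retina, fewer cells of a type and less RNA per cell cannot be told apart.

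**Figure D1:**
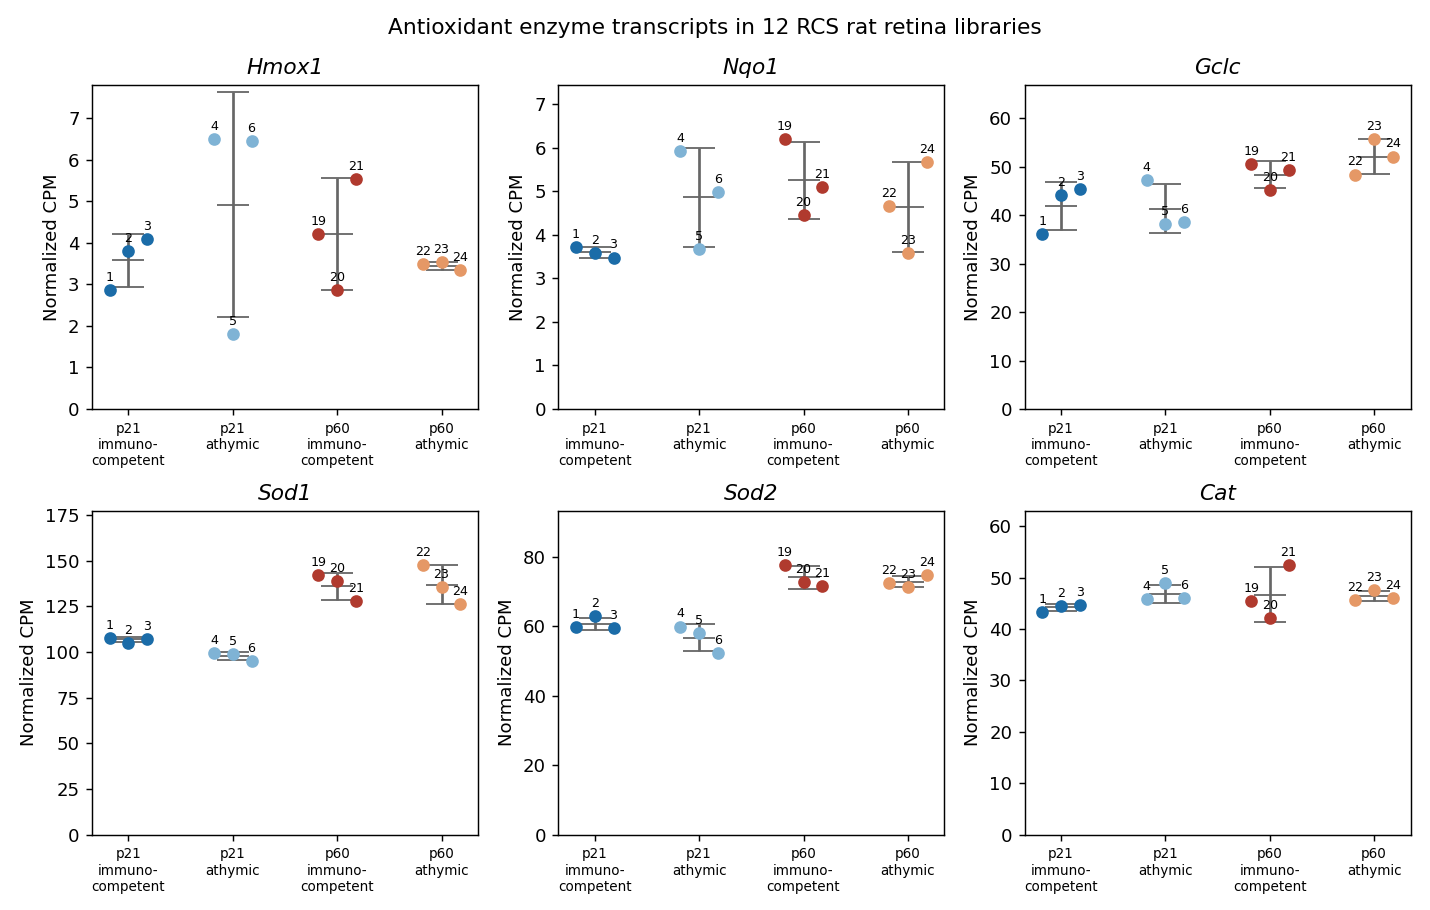
Normalized CPM of each of the 6 genes (y axis, from 0) in each of 12 libraries (points, with the library number), grouped on the x axis by age and line, with grey bars for the mean ± SD of 3 libraries. The p60 points of *Sod1* and *Sod2* lie above all their p21 points, *Cat* stays near 46 at both ages, and the p21 athymic points of *Hmox1* run from 1.79 to 6.5.

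*Sod1* (ENSRNOG00000002115, plus strand of chromosome 11 from 30363280 to 30368862 in Rnor_6.0, 5 exons) was the most abundant of the 6 by counts. In the immunocompetent line, it had 108, 105 and 107 normalized CPM in libraries 1, 2 and 3 at p21, and 142, 139 and 128 in libraries 19, 20 and 21 at p60. In the athymic line, it had 99.7, 98.8 and 95.2 in libraries 4, 5 and 6 at p21, and 148, 136 and 126 in libraries 22, 23 and 24 at p60. The lowest p60 library thus lay above the highest p21 library, and the athymic p21 libraries lay below the immunocompetent ones. The mean went from 102 ± 5.07 to 136 ± 8.29 (SD, n = 6 each), or 0.42 ± 0.0453 on the log2 scale (± standard error, edgeR adjusted p = 2.19e-06). The cytosolic dismutase rose in each line alone, by 1.28-fold in the immunocompetent retinas (95% confidence interval 1.16 to 1.4, adjusted p = 0.00109) and by 1.39-fold in the athymic retinas (1.25 to 1.54, adjusted p = 0.00044).

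*Sod2* (ENSRNOG00000019048, minus strand of chromosome 1 from 47914759 to 47921587, 5 exons), the mitochondrial dismutase, moved in the same direction. It had 59.8, 62.8 and 59.4 normalized CPM in libraries 1, 2 and 3, and 77.7, 72.7 and 71.5 in libraries 19, 20 and 21. The athymic retinas had 59.9, 58 and 52.2 in libraries 4, 5 and 6, and 72.5, 71.3 and 74.6 in libraries 22, 23 and 24. Again the ages did not overlap, with library 6 the lowest of all. The mean went from 58.7 ± 3.51 to 73.4 ± 2.4 (SD, n = 6 each), or 0.32 ± 0.0441 on the log2 scale (± standard error, edgeR adjusted p = 2.03e-05). The rise was 1.22-fold in the immunocompetent line (95% confidence interval 1.1 to 1.35, adjusted p = 0.0049) and 1.28-fold in the athymic line (1.16 to 1.42, adjusted p = 0.00205). In normalized CPM, *Sod1* and *Sod2* were the 2 of 6 genes with every p60 library above every p21 library. This held for 19.8% of the genes tested. Ages that do not overlap fix the p of a permutation test at the smallest that 6 libraries against 6 allow. For these 2 genes it (two-sided exact permutation test of the mean, p = 0.00216) therefore adds nothing to the lack of overlap. In CPM of the total, the ages of *Gclc* did not overlap either, which fixes the same p. The share of all genes without overlap in that unit was not computed.

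*Gclc* (ENSRNOG00000006302, plus strand of chromosome 8 from 85059051 to 85097468, 16 exons), which commits cysteine to glutathione, rose less evenly. Its normalized CPM was 36.2, 44.1 and 45.4 in libraries 1, 2 and 3 and 50.5, 45.2 and 49.4 in libraries 19, 20 and 21. In the athymic retinas it was 47.3, 38.3 and 38.7 in libraries 4, 5 and 6 and 48.4, 55.8 and 52.1 in libraries 22, 23 and 24. The ages overlapped over all 12 libraries, because libraries 3 and 4 at p21 were above library 20 at p60. The mean went from 41.7 ± 4.53 to 50.2 ± 3.57 (SD, n = 6 each), or 0.27 ± 0.0732 on the log2 scale (± standard error, edgeR adjusted p = 0.0056, two-sided exact permutation p = 0.00649). *Gclc* rose by 1.25-fold in the athymic line (95% confidence interval 1.08 to 1.45, adjusted p = 0.0171), and in the immunocompetent line its fold was 1.15 (0.984 to 1.35, adjusted p = 0.119). The immunocompetent value, 0.20 on the log2 scale, was 0.12 without library 1 (adjusted p = 0.311). The athymic call was lost without library 5 (adjusted p = 0.0716), library 6 (0.0613) or library 23 (0.0859).

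*Cat* (ENSRNOG00000008364, minus strand of chromosome 3 from 93379874 to 93412058, 13 exons) stayed within a narrow band. The catalase transcript had 43.4, 44.5 and 44.8 normalized CPM in libraries 1, 2 and 3 and 45.9, 49 and 46 in libraries 4, 5 and 6 at p21. At p60, it had 45.4, 42.1 and 52.5 in libraries 19, 20 and 21 and 45.6, 47.6 and 46.1 in libraries 22, 23 and 24. The lowest and the highest values, in libraries 20 and 21, were both from immunocompetent retinas at p60. The p21 retinas averaged 45.6 ± 1.9 and the p60 retinas 46.6 ± 3.42 (SD, n = 6 each). The fold over all retinas was 1.02, with a 95% confidence interval of 0.943 to 1.11 (adjusted p = 0.643 from edgeR). It was 1.05 in the immunocompetent line (0.914 to 1.22) and 0.986 in the athymic line (0.896 to 1.08).

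*Nqo1* (ENSRNOG00000012772, plus strand of chromosome 19 from 38422164 to 38437180, 6 exons) was measured on few reads, 46 to 94 counts per library. The quinone reductase had 3.73, 3.59 and 3.48 normalized CPM in libraries 1, 2 and 3 and 6.2, 4.44 and 5.1 in libraries 19, 20 and 21. In the athymic retinas it had 5.93, 3.66 and 4.98 in libraries 4, 5 and 6 and 4.67, 3.59 and 5.67 in libraries 22, 23 and 24. The immunocompetent p60 libraries were all above the p21 ones, whereas the athymic ages overlapped. Over all retinas the mean went from 4.23 ± 1 to 4.95 ± 0.928 (SD, n = 6 each), a fold of 1.18 (95% confidence interval 0.907 to 1.52, adjusted p = 0.262 from edgeR). In the immunocompetent line, *Nqo1* rose by 1.45-fold (1.06 to 1.99, adjusted p = 0.0476), and in the athymic line its fold was 0.953 (0.648 to 1.4, adjusted p = 0.831). The immunocompetent call was lost without any of 5 of its 6 libraries (1, 2, 3, 19 or 21; adjusted p between 0.0745 and 0.159) and also with DESeq2 in place of edgeR (adjusted p = 0.108), with no filter on low counts (0.0748) and in a model of all 4 groups (0.0572). Without 1 library, its log2 fold change was between 0.41 (without library 19) and 0.65 (without library 20), beside 0.54 with all 6. It was also 0.54 with DESeq2, with no filter on low counts and in the model of all 4 groups. Libraries 4, 19 and 24, with the 3 highest sums of the 31-gene set, had the 3 highest values of *Nqo1*. Library 21 came next with 5.1 normalized CPM at a sum of 67.9, above library 6 with 4.98 at a sum of 1860. The part of this set in the values of *Nqo1* was not tested. Of libraries 4, 19 and 24, only library 19 is immunocompetent, so leaving them out repeats the fit without library 19 in that line. There *Nqo1* was 0.41 ± 0.222 higher at p60 on the log2 scale (± standard error, edgeR adjusted p = 0.159). Over all retinas without libraries 4, 19 and 24, it was 0.19 higher (edgeR adjusted p = 0.385).

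*Hmox1* (ENSRNOG00000014117, plus strand of chromosome 19 from 14508616 to 14515456, 5 exons) differed more between retinas of the same age than between the ages. The heme oxygenase transcript had 2.86, 3.8 and 4.08 normalized CPM in libraries 1, 2 and 3 and 4.22, 2.86 and 5.54 in libraries 19, 20 and 21. In the athymic retinas it had 6.5, 1.79 and 6.45 in libraries 4, 5 and 6 and 3.49, 3.53 and 3.34 in libraries 22, 23 and 24. Library 5, with 24 counts, was the lowest of all 12, and libraries 4 and 6 of the same group, with 91 and 101 counts, were the highest. The exact 95% Poisson interval, which covers counting error only, was 1.15 to 2.67 for library 5 and overlapped neither that of library 4 (5.23 to 7.98) nor that of library 6 (5.25 to 7.84). The mean went from 4.25 ± 1.9 to 3.83 ± 0.945 (SD, n = 6 each), a fold of 0.904 (95% confidence interval 0.593 to 1.38, adjusted p = 0.681 from edgeR). The fold was 1.17 in the immunocompetent line (0.759 to 1.81, adjusted p = 0.518) and 0.699 in the athymic line (0.368 to 1.33, adjusted p = 0.318). The immunocompetent value, 0.23 on the log2 scale, was -0.017 without library 21 and 0.445 without library 20 (edgeR adjusted p = 0.966 and 0.198). The athymic value, -0.52 ± 0.406 on the log2 scale (± standard error), depended on single p21 libraries. It was -0.91 ± 0.183 without library 5 (edgeR adjusted p = 0.00656), -0.28 ± 0.459 without library 4 (adjusted p = 0.647) and -0.27 ± 0.458 without library 6 (adjusted p = 0.658). Libraries 4 and 6 also held much of the 31-gene set, and libraries 19 and 24, which held more of it than library 6, had 4.22 and 3.34. Its part in *Hmox1* was not tested, and without libraries 4, 19 and 24 the difference between the ages was 0.01 on the log2 scale (adjusted p = 0.98).

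**Figure D2:**
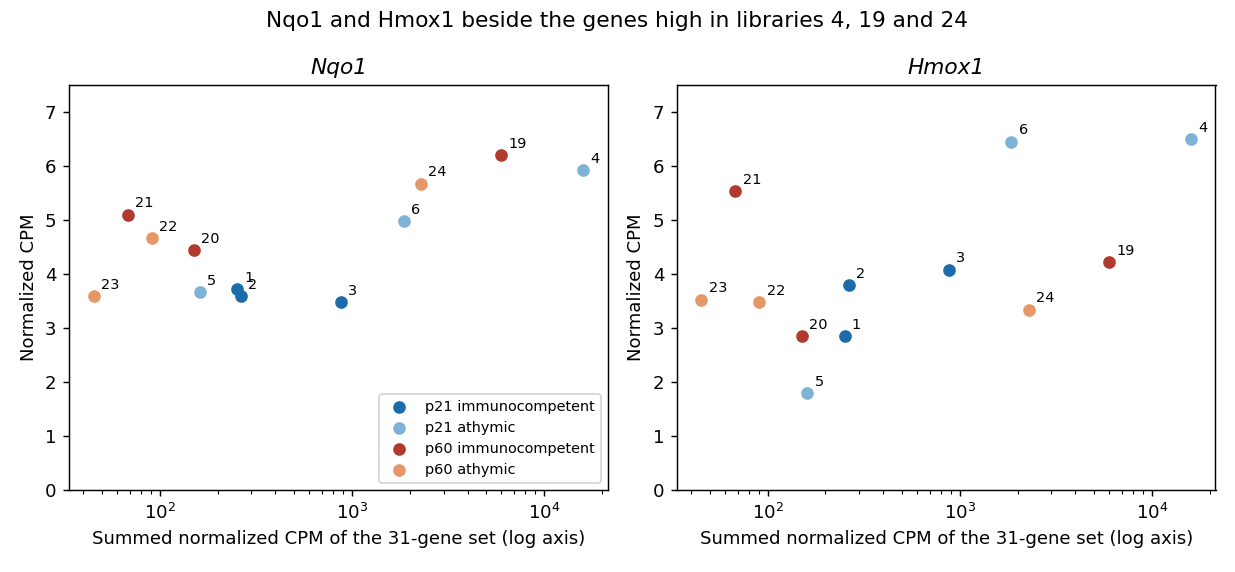
Normalized CPM of *Nqo1* (left) and *Hmox1* (right) on the y axis against the summed normalized CPM of the 31 genes picked for being high in libraries 4, 19 and 24 (x axis, log scale), 1 point per library with its number. Libraries 19, 4 and 24 have the highest *Nqo1*, and for *Hmox1* library 21 reaches 5.54 at a sum of 67.9.

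Next, the change was compared between the lines. Both lines alone gave 3 of 6 genes called higher, and the members called were not the same: *Sod1*, *Sod2* and *Nqo1* in the immunocompetent line, where 25.6% of 15412 genes were called higher, and *Sod1*, *Sod2* and *Gclc* in the athymic line, where 25.3% of 15507 were. For these same genes every p60 library lay above every p21 library of the line, as it did for 30.3% and 30.6% of the genes tested. The interaction of age and line called 0 of 6 genes (1 of the 16069 genes tested, 0.00622%), and 0 of the 6 and 1494 of all genes had an unadjusted p under 0.05 (edgeR). DESeq2 called 0 of the 6 and 146 of all genes, and edgeR without library 1 called 0 of the 6 and 138 of all genes. *Nqo1* had an interaction log2 difference, athymic minus immunocompetent, of -0.61 (95% confidence interval -1.29 to 0.07, adjusted p = 0.599) and *Hmox1* of -0.75 (-1.91 to 0.42, adjusted p = 0.705). The other 4 lay between -0.09 for *Cat* and 0.13 for *Sod1* (-0.06 to 0.32). Hence neither *Nqo1* nor *Gclc* was shown to change differently in the 2 lines.

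**Figure D3:**
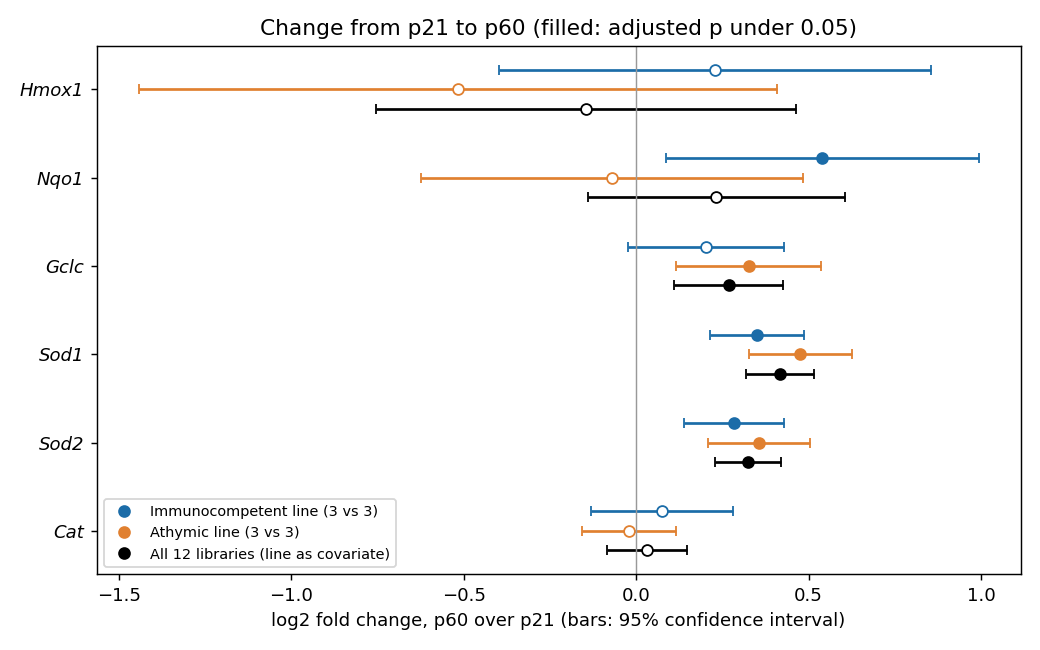
Log2 fold change from p21 to p60 (x axis) of each gene (y axis) in the immunocompetent line, the athymic line and all 12 libraries, with bars for the 95% confidence interval and filled points for an adjusted p under 0.05. *Sod1* and *Sod2* are filled in all 3 fits, and the athymic interval of *Hmox1* runs from -1.44 to 0.41.

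The lines were also compared over both ages, which could not separate line from labelled sex. Libraries 4, 5 and 22, labelled athymic and female, had Y chromosome sums of 328, 316 and 269 CPM, like the libraries labelled male. Both this comparison and the interaction thus rest on labels that did not match for sex in these libraries. None of the 6 genes passed the test, nor did any of the 16069 genes tested (0%), where 0 of the 6 and 1904 of all genes had an unadjusted p under 0.05 in edgeR and DESeq2 called 0 of the 6 and 261 of all genes. The athymic level was 0.96 of the immunocompetent one for *Sod1* (95% confidence interval 0.898 to 1.03) and 0.96 for *Sod2* (0.899 to 1.03). It was 1.03 for *Cat* (0.948 to 1.11), 1.03 for *Gclc* (0.925 to 1.15) and 1.09 for *Nqo1* (0.839 to 1.41). For *Hmox1* it was 1.06, with an interval from 0.696 to 1.62.

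The levels of different genes were compared per kilobase of exon, as RPKM from the normalized counts. Per length, *Sod1* led in all 4 groups, with 149 ± 3.63 RPKM in athymic p21 retinas and 208 ± 16.4 in athymic p60 retinas (SD, n = 3 each), and 97.4% of the genes tested at p21 and 98.5% at p60 had a lower mean RPKM. *Sod2* came next, at 28.4 ± 1.7 RPKM over the 6 retinas at p21 and 35.6 ± 1.16 at p60, so the cytosolic transcript exceeded the mitochondrial one between 5.43- and 5.9-fold in the group means. *Cat* followed with 18 ± 0.75 and 18.3 ± 1.35 RPKM, and *Gclc* with 13.7 ± 1.49 and 16.5 ± 1.17. The ratio of *Cat* to *Gclc* was 1.36 in athymic retinas at p21 and 1.07 at p60, where their libraries overlapped. In the other 3 groups they did not. In immunocompetent retinas at p60, however, the lowest *Cat* (library 20) and the highest *Gclc* (library 19) were both 16.6 RPKM. *Nqo1* (2.68 ± 0.633 and 3.13 ± 0.588 RPKM) and *Hmox1* (2.71 ± 1.22 and 2.44 ± 0.604) were the lowest, with 24.4% and 24.6% of the genes tested below them at p21. They overlapped each other in 3 of the 4 groups, and in athymic retinas at p60 every *Nqo1* value was above every *Hmox1* value.

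**Figure D4:**
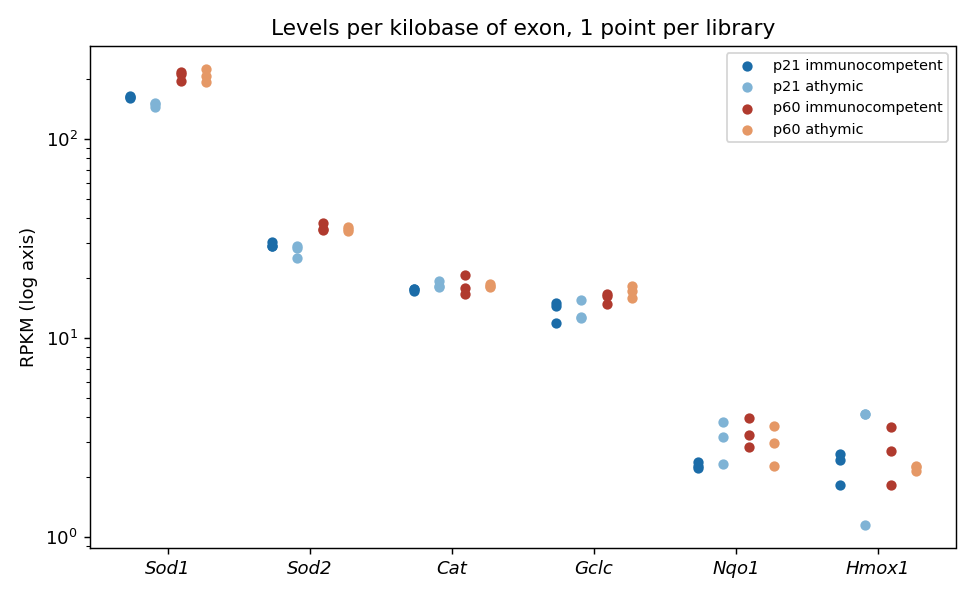
RPKM of each gene in each library on a log axis, coloured by age and line, with 3 points per group. *Sod1* lies highest, *Cat* and *Gclc* lie close together below *Sod2*, and *Nqo1* and *Hmox1* lie lowest and share their range.

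Over both lines of an age, *Hmox1* had the highest relative spread of the 6, from different groups at the 2 ages. At p21 its SD was 55% of the mean in athymic and 17.9% in immunocompetent retinas. At p60 it was 31.9% in immunocompetent retinas and 2.84% in athymic ones, below the counting error there of 13.3%, where *Nqo1* had 22.5%. Over the 6 libraries of an age, the SD of *Sod1* was 4.96% of its mean at p21 and 6.07% at p60, beside a counting error of 2.65% and 2.14%. For *Sod2* it was 5.98% and 3.27%, and for *Cat* 4.18% and 7.34%. *Gclc* had 10.9% and 7.11%. For *Hmox1* the SD was 44.8% of the mean at p21 and 24.7% at p60, beside a counting error of 12.9% and 12.8%, and for *Nqo1*, at a like depth, 23.6% and 18.8%. The coefficient of biological variation fitted by edgeR was 33.5% for *Hmox1*, where 89.8% of 1257 genes of similar abundance had a lower one (median 19.2%). That of *Nqo1* was 20.5% beside a median of 18.3%, and that of *Sod2* was 7.27% beside 8.31%.

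Small changes in these data are relative to the scaling. With TMM factors, 5096 genes were higher and 4873 lower at p60, and with scaling to total counts 7357 were higher and 2904 lower, because the log2 fold change of the median gene moved from 0.01 to 0.20. Under total counts, 5 of the 6 genes were called higher, where 45.8% of all genes were, *Cat* with a log2 fold change of 0.22 (adjusted p = 0.00309 from edgeR) and *Nqo1* with 0.42 (adjusted p = 0.0469). The change of scaling moved each of the 6 genes and the median gene by 0.187 to 0.19 on the log2 scale. Values relative to the median gene are therefore nearly the same under both scalings by construction: 0.40 for *Sod1*, 0.31 for *Sod2*, 0.25 for *Gclc*, 0.22 for *Nqo1*, 0.02 and 0.01 for *Cat* and -0.16 for *Hmox1*. Among all genes tested, 75.4% had a lower log2 fold change than *Sod1*, 70.6% than *Sod2*, 67.4% than *Gclc* and 36.2% than *Hmox1*. The genes called in either direction had a median absolute change of 0.51 on the log2 scale, and each of the 6 lay below it.

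**Figure D5:**
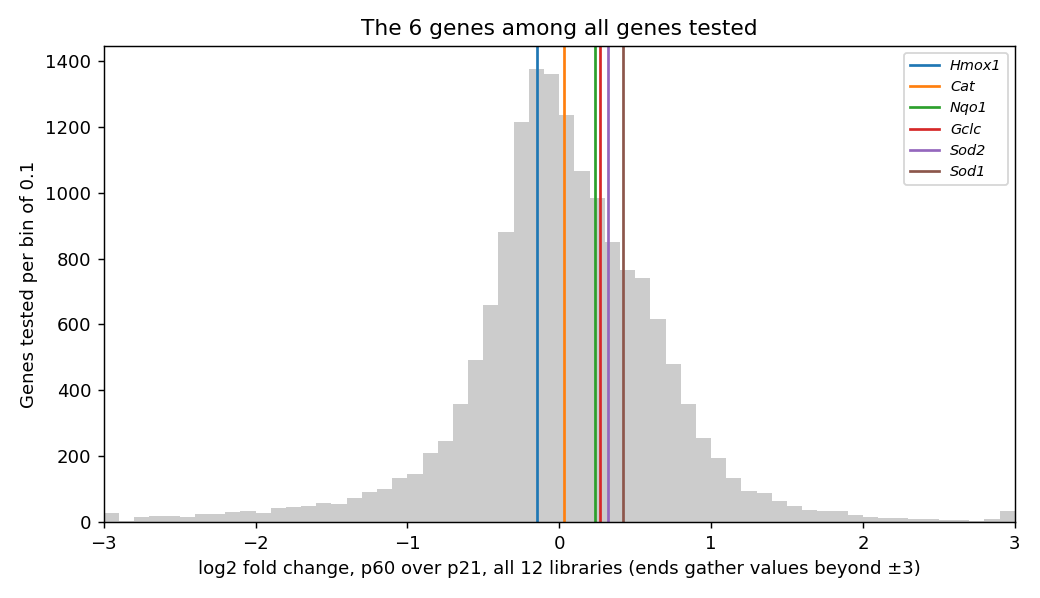
Number of genes tested (y axis) by log2 fold change from p21 to p60 over all 12 libraries (x axis, bins of 0.1), with a vertical line for each of the 6 genes. The lines run from -0.15 for *Hmox1* to 0.42 for *Sod1*, inside the bulk of the 16069 genes.

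A ratio of counts within a library does not depend on the scaling. Per *Cat* count, p21 libraries held 2.25 ± 0.188 *Sod1* counts and p60 libraries 2.95 ± 0.333 (SD, n = 6 each). For *Sod2* the ratio was 1.29 ± 0.108 and 1.58 ± 0.137, and for *Gclc* 0.916 ± 0.109 and 1.08 ± 0.0802. In these 3 ratios the lowest p60 library was library 21, the library with the most *Cat*, and the ages overlapped through it. The ratio to *Cat* was higher in every p60 than in every p21 library for 0 of the other 5 genes and for 15.9% of all genes tested.

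The genes with the most similar profile were sought as the smallest root mean square difference of log2 normalized CPM over the 12 libraries, each gene centred on its own mean. Nearest to *Sod1* was ENSRNOG00000004257, on chromosome X from 33383087 to 33522836, with a difference of 0.0648 where the median gene had 0.342. It had 38.8 ± 2.43 normalized CPM at p21 and 50.6 ± 1.57 at p60. Nearest to *Sod2* was ENSRNOG00000055860, on chromosome 4 from 140837745 to 140881865, at 0.0508 (median gene 0.316), with 117 ± 5.93 normalized CPM at p21 and 148 ± 3.19 at p60. Both genes were chosen for this likeness over the same libraries, which fixes their rise with age, so it was not tested. The profile of *Hmox1* was matched far less closely. Its nearest gene differed by 0.288 (median gene 0.574). The files pair no symbols with these identifiers, and none matched the gene table at hand, so the other genes of the NRF2 and glutathione pathways and the marker genes of retinal cell types were not analysed here. The labelled tissue was therefore not checked against its markers.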

How the data were processed

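Poly(A) RNA of whole RCS rat retinas was turned into libraries with NEBNext Ultra II and read from both ends. The authors aligned reads with STAR, counted them per Ensembl gene with featureCounts and deposited raw counts without normalization, 1 file per library. The submitters' processing notes name STAR 2.5.2b, Subread 1.5.2 and the build Rnor_6.0. The strand setting and the treatment of reads with several positions are not given in the sources used here. Reads of near-identical copies could thus be lost or split. For each of the 6, 0 other annotated genes overlapped its exons.

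From the deposited counts, genes were kept with filterByExpr (minimum count 10, minimum total 15), scaled with TMM and tested with the quasi-likelihood test of edgeR 4.0.16 in R 4.3.3 (adjusted p under 0.05, Benjamini-Hochberg over all genes tested). DESeq2 1.42.0 was an alternative. Standard errors were derived from F, and confidence intervals are 95%. Log2 CPM for profile likeness used a prior count of 0.5. Plots were drawn with matplotlib 3.10.9. Scripts were tested on simulated data. Each library is a separate number in the labels, and whether 1 or both retinas of a rat were used is not stated there. The chi-square per degree of freedom of the 12 pairs of libraries of the same group was 3.93 to 22.7, so none was a copy. The members, the lists and the libraries left out as alternatives were chosen with earlier results of these data known. All 6 members were named, and for likeness the identifiers of the nearest genes of *Sod1* and *Sod2*, 2 that rose, were given. The lists of pathway genes and cell type markers could not be used, since 0 identifiers could be matched to symbols. The ratios to *Cat* and the 31-gene set were chosen after the values were seen.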

Additional observations from a re-analysis of the deposited data

Results flagged for a closer look

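The 6 genes and the 2 measures of libraries that stood apart gave 16 groups, each of the 6 libraries of p21 or p60. In 2 of the 16, both from these measures, a library's gap to its neighbour was large for the range (Dixon's ratio). Chance gives about 1 in 20, a rate that does not hold for the 31-gene set, picked for being high in some libraries. Nor does it hold for the Y chromosome sums, which were high in some libraries and low in others. At p21, library 6 had 8.79 CPM on the Y chromosome, where the next lowest library had 229. At p21, library 4 had 16000 normalized CPM on the 31-gene set, where the next highest had 1860, and these genes were picked for being high there. None of the 6 enzymes was far from the others in any library by this measure. For *Hmox1* the ratio was 0.226 at p21 and 0.491 at p60.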

How the results depend on the processing

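No paired analysis was possible because the groups share no replicate numbers. Over all retinas, *Sod1*, *Sod2* and *Gclc* were called in every fit without 1 library and under every alternative but a minimum absolute log2 fold change of 1, which left 0 of the 6 in each comparison of ages and 1701 of all genes over all retinas, 1821 in the immunocompetent and 1639 in the athymic line. Scaling to total counts called 5 of the 6 over all retinas, 5 in the immunocompetent line, where 38.1% of all genes were called higher, and 4 in the athymic line, where 38.9% were. It turned *Hmox1* over all retinas to 0.042, and in the athymic line *Cat* to 0.17 (adjusted p = 0.0418) and *Nqo1* to 0.12. In CPM of the total, the difference between the ages was 0.105 for *Hmox1*, 6.98 for *Cat* (exact permutation p = 0.00433) and 1.32 for *Nqo1* (p = 0.0498). It was 49.9 for *Sod1*, 23.4 for *Sod2* and 14.6 for *Gclc* (exact permutation p = 0.00216 for each). The ages of *Sod1*, *Sod2* and *Gclc* did not overlap in this unit, which fixes that p. The share of all genes without overlap in it was not computed. Without libraries 4, 19 and 24, *Hmox1* was 0.012 over all retinas and -0.002 between the lines, and *Gclc* was -0.001 between the lines. Without libraries 3, 4, 5 and 22, which leaves library 6 as the only athymic p21 retina, assumed to vary like the other groups, *Cat* in the athymic line was 0.013, and 3342 genes were called there.

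Without 1 library at a time, the log2 fold change over all retinas ranged from -0.296 to 0.012 for *Hmox1*, from -0.015 to 0.057 for *Cat* and from 0.141 (without library 19) to 0.342 (without library 4) for *Nqo1*. In the immunocompetent line it ranged from -0.017 to 0.445 for *Hmox1* and from -0.013 to 0.146 for *Cat*. In the athymic line it ranged from -0.049 to 0.011 for *Cat*, from -0.257 to 0.083 for *Nqo1* and from -0.91 to -0.27 for *Hmox1*. For *Gclc* it ranged from 0.117 to 0.261 in the immunocompetent and from 0.263 to 0.419 in the athymic line. Between the lines it ranged from -0.064 to 0.24 for *Hmox1* and from 0.022 to 0.224 for *Nqo1*. The interaction of *Hmox1* ranged from -1.136 (without library 5) to -0.496 (without library 21) and was -1.265 without libraries 3, 4, 5 and 22, and that of *Nqo1* ranged from -0.777 to -0.455. The interaction values of the other 4 lay between -0.161 and 0.203 without 1 library, and without libraries 4, 19 and 24 those of *Gclc* and *Sod1* were 0.262 and 0.225. The number of all genes called between the lines was 16 without a filter, 261 with DESeq2, 1 without libraries 4, 19 and 24 and 63 without libraries 3, 4, 5 and 22, and 0 to 74 without 1 library (74 without library 3, 8 without library 4 and 3 without library 19). For the interaction it was 115 without a filter, 0 with at least 10 counts in every library, 146 with DESeq2, 3 without libraries 4, 19 and 24 and 0 without libraries 3, 4, 5 and 22, and 1 to 138 without 1 library (138 without library 1, 92 without library 24 and 8 without library 6). None of the 6 was called in either comparison under these settings. The cause of these differences was not tested. Of 552 values of single genes under the alternatives, 507 kept their direction and their side of the threshold. They include line and interaction values, where none of the 6 was called under any setting, and some fits that repeat another. The share kept is therefore no measure of how stable the calls were. At 24 to 101 counts per library, the depth of *Hmox1* and *Nqo1* limits what can be seen.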
